A study of Mus musculus with 9 samples.

Results

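The epidermal barrier genes followed across 3 mouse cell lines were Krtdap, Dapl1, Dmkn, Sbsn, Spink5, Rptn, Ivl, Flg, Capns2 and Tgm1. They were taken from all probe sets that carry exactly 1 gene symbol, and 15 of 34945 such probe sets, or 10 of 18193 genes, belong to them. The 10 genes were chosen from earlier results of these same arrays, so their levels, differences and calls are given as a description and are no test of the list. Each gene is represented by its brightest probe set unless another is named, and 7 of the 10 have 1 probe set. In the wild-type line all 10 read above the background floor defined below.

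RNA was measured on Affymetrix MG-430 2.0 arrays, with 3 arrays for each line and 9 in all, in cells of a mixed C57/BL6 x sv129 background. The wild-type and knockout lines are not tumorigenic and were established from tracheas taken at 3 weeks of age, the former from a mouse with Gprc5a, a receptor gene that acts as a lung tumour suppressor in mice, and the latter from a mouse without it. The tumour line, MDA-F471, came from a lung adenocarcinoma in a female Gprc5a-knockout mouse killed 16 months after an intraperitoneal injection of NNK, a tobacco carcinogen. Both the knockout and the tumour line therefore lack Gprc5a, and the tumour line differs further in organ, age of the mouse and carcinogen exposure. The sample labels call the tracheal lines lung epithelial. Each group is 1 line, so genotype, line and handling cannot be told apart, and nothing in the labels says that replicate arrays came from separate cultures, so p-values measure only the spread between arrays. The 3 pairwise comparisons share their arrays.

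The outer layers of skin and of other stratified squamous epithelia are held together by the cornified envelope, a sheet of proteins cross-linked beneath the membrane of dying keratinocytes. Involucrin (Ivl) forms an early scaffold, transglutaminase 1 (Tgm1) cross-links it at the membrane, and large S100-fused proteins such as filaggrin (Flg) and repetin (Rptn) are added in the late layers. Shedding of the dead cells is timed by kallikrein proteases, which the inhibitor LEKTI, encoded by Spink5, restrains. A healthy trachea carries a pseudostratified mucociliary epithelium in which these genes are not typical, while airway basal cells in culture can turn squamous.

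The promoters of the members are shown first, because 6 of the 9 that were searched share 1 short motif and because 3 of the genes stand side by side on chromosome 7. Sequences come from RefSeq on build GRCm38.p6, which held 12 windows for 9 of the members, with 3 starts for Dmkn and 2 for Tgm1. The 250 bases before each annotated start were searched. The stretches below are the last 120 of these, which hold every AP-1 match found in the members, written 5′ to 3′ along the gene's own strand. Capitals mark matches to the AP-1 motif TGANTCA, a palindrome that reads alike on both strands and is the site of Fos and Jun proteins. Capns2 is shown as a promoter without a match, and the start used for Flg is that of a predicted transcript model.
Krtdap (chr7:30787785-30787904, plus strand): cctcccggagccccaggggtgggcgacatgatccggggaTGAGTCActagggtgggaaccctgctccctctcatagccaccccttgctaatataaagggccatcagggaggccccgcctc
Dmkn, upstream start (chr7:30763636-30763755, plus strand): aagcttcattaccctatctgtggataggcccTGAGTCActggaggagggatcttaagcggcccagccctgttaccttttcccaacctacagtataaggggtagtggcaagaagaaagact
Dmkn, downstream start (chr7:30776285-30776404, plus strand): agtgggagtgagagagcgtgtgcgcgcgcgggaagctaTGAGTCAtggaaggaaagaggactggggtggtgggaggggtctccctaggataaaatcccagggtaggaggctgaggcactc
Sbsn (chr7:30751351-30751470, plus strand): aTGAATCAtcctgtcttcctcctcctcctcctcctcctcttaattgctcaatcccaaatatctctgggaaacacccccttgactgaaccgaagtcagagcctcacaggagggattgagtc
Ivl (chr3:92573736-92573855, minus strand): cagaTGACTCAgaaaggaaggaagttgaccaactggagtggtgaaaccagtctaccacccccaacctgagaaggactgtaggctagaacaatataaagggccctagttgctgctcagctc
Flg (chr3:93273426-93273545, plus strand): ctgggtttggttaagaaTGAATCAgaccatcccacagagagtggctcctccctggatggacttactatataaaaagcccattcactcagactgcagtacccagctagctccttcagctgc
Rptn (chr3:93393579-93393698, plus strand): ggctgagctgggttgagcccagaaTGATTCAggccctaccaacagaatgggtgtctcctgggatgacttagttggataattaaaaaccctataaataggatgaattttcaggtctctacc
Capns2 (chr8:92901275-92901394, plus strand): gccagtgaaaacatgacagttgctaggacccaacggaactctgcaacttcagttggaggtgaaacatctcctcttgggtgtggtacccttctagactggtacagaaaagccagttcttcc

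AP-1 matches were found in the windows of Krtdap, Dmkn, Sbsn, Rptn, Ivl and Flg, and not in those of Dapl1, Capns2 and Tgm1. Over all promoters of the same 250 bases, 6.75% of 32851 windows and 7.82% of 27025 genes held the motif. Krtdap and the Dmkn starts carry the same 7 letters, TGAGTCA. The match lies 81 bases before the Krtdap start, counted to its first base, and 89 and 82 bases before the Dmkn starts shown. It lies 119 bases before the start of Sbsn, 116 before Ivl, 103 before Flg and 96 before Rptn. In all 12 motifs were searched on both strands of these windows, and AP-1 was singled out after the matches had been seen. TATAAA, on either strand, occurred in 5 of the 9 members (14.3% of all genes), the C/EBP motif TTGCNNAA in 4 (10.8%), the grainyhead motif AACCNGTT in 1, Rptn (2.0%), and its looser form AACNNGTT, which includes it, also in Rptn alone (4.11%). The frequent motifs CACCC of KLF factors and GGAAG of ETS factors occurred in 8 and 7 members, against 54.5% and 66.9% of all genes. AGGTCA, bound by retinoid receptors, occurred in 3 members (15.8%), CCAAT in 2 (37.5%), the GC box GGGCGG in 2 (35.4%), the E-box CAGCTG in 1 (14.7%) and the TEAD motif GGAATG in 0 (14.4%). The matching promoters belong to genes with unlike patterns across the lines: Krtdap and Flg read near background in the knockout line, Dmkn and Sbsn stayed high there, and Ivl read highest in the tumour line.

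The lines were checked by their markers. Gprc5a read 8.57 ± 0.22 log2 in wild-type, 7.16 ± 0.06 in knockout and 7.02 ± 0.06 in tumour cells (SD, n = 3 arrays each); whether its probe set lies inside the deleted part was not analysed here. The tracheal lines carried the basal cell markers Krt5, at 14.46 and 14.38, and Trp63, at 12.05 and 10.69, and the mean of the 5 basal markers was 12.17 to 12.27 on wild-type arrays, 11.97 to 12.09 on knockout arrays and 6.21 to 6.37 on tumour arrays. In the tumour line Trp63 and Col17a1 lay at background. Its label of lung adenocarcinoma was not matched by alveolar type II markers at a raised level: Sftpc read 5.72 and Nkx2-1 5.35, against 5.78 and 5.18 in the wild-type line. The other listed markers, Sftpb, Sftpa1 and Abca3, read 7.85, 5.33 and 9.52, against 7.68, 5.41 and 9.64 in the wild-type line. Of the suprabasal keratinocyte markers, Krt1 read 10.43 in wild-type, 6.25 in knockout and 6.02 in tumour cells, Krt10 read 8.36, 7.51 and 7.15, and Krt2 was at background in all 3. The mean of these 3 markers was 7.47 to 7.63, 5.77 to 5.84 and 5.48 to 5.64 on the arrays of the 3 lines. Of 5 airway secretory markers, Cyp2f2 read 11.07 in wild-type, 11.32 in knockout and 5.77 in tumour cells. Scgb1a1 lay under the floor in every line, and the mean of the 5 was 6.96 to 7.03, 7.03 to 7.33 and 5.92 to 6.03. Of 5 ciliated cell markers, Tubb4b read 10.87, 11.55 and 13.12 and Ccdc39 lay under the floor in every line. Their mean was 6.34 to 6.37, 6.64 to 6.78 and 6.78 to 6.88. Of 5 markers each, 1 of leukocytes (Ptprc), 1 of fibroblasts (Col3a1) and 2 of endothelial cells (Tek and Emcn) lay under the floor in every line. The others did not, and Cd68 read 8.03 in wild-type, 7.71 in knockout and 6.92 in tumour cells and Dcn 6.84, 6.24 and 6.12. The mean of the 5 leukocyte markers was 6.36 to 6.44 on wild-type, 6.22 to 6.34 on knockout and 6.20 to 6.26 on tumour arrays, that of the fibroblast markers lay between 5.66 and 5.88 and that of the endothelial markers between 5.28 and 5.51 on all arrays. Their part in the results was not tested. The log2 difference between the 3′ and 5′ probe sets of beta-actin, a sign of RNA integrity, was 0.75 to 1.78 on wild-type, 0.90 to 0.95 on knockout and 0.37 to 0.74 on tumour arrays, and its part in the results was not tested. Correlations between arrays over all probe sets were 0.990 to 0.996 within lines and 0.913 to 0.975 between lines.

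Levels are log2 signals, so 1 unit is a doubling, and a level of 1 gene cannot be set against that of another because probe sets differ in brightness. The background floor is a log2 signal of 5.15, the 95th percentile of 27 bacterial control probe sets, whose highest value was 5.96. Where all 3 arrays of the dimmer line lay under the floor, the fold is a lower bound computed against it. In a culture, fewer cells that make a transcript and less transcript per cell cannot be told apart.

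**Figure D1:**
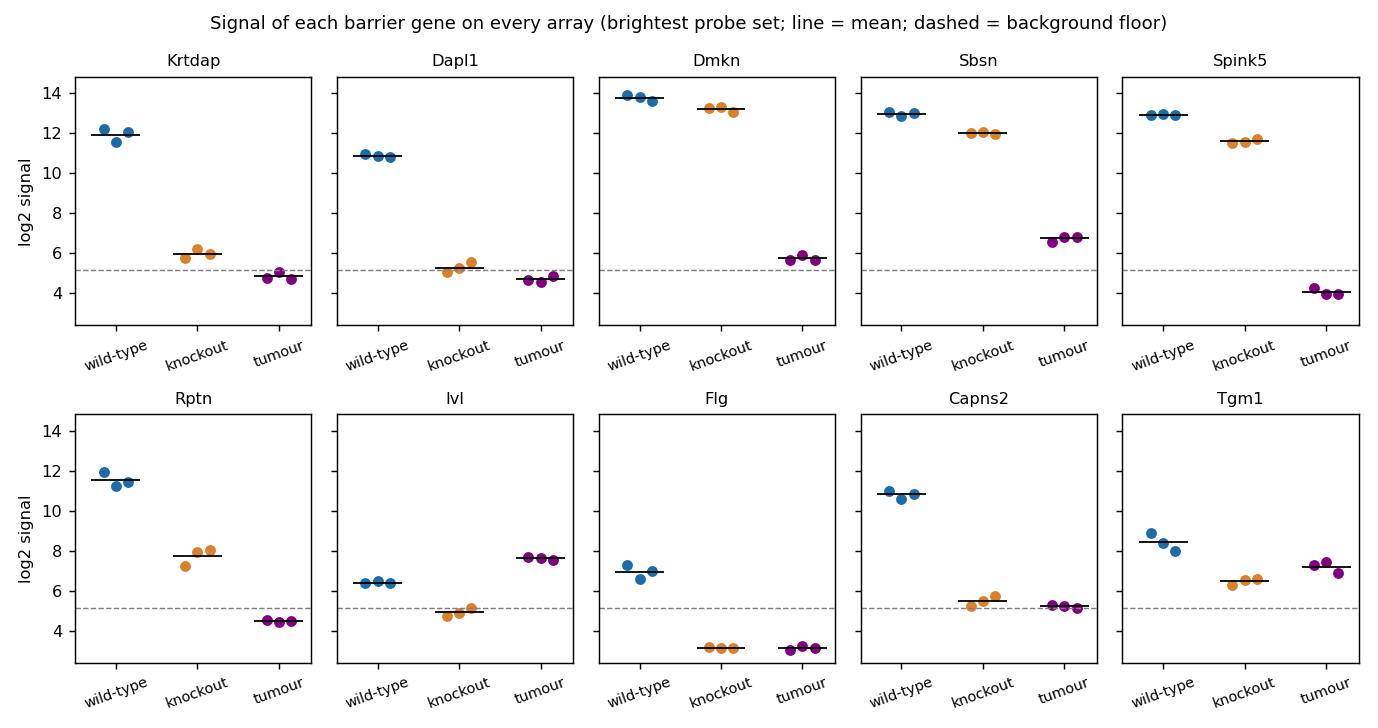
Log2 signal of the 10 barrier genes on each of the 9 arrays, 1 panel per gene, with 1 point per array for each line, a short line at its mean and the background floor of 5.15 dashed. Krtdap, Dapl1, Capns2, Flg and Ivl lie near or under the floor in the knockout line, Dmkn, Sbsn and Spink5 are low only in the tumour line, and Ivl is highest in the tumour line.

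Among the secreted peptides of keratinocytes, Krtdap, which marks cells leaving the basal layer, separated the wild-type line from both others. Krtdap read 12.19, 11.54 and 12.04 on the wild-type arrays, 5.79, 6.20 and 5.96 on the knockout arrays and 4.76, 5.06 and 4.74 on the tumour arrays. No array of one line overlapped another line, and the knockout arrays stood close to the highest bacterial control. The log2 difference of knockout minus wild-type was -5.94 ± 0.16 (SE of the gene's fit), or 61.3-fold. A further difference of -1.13 ± 0.16, at least 1.79-fold, separated the tumour from the knockout line, but against the highest control that bound is 1.02-fold. The tumour line lay at least 109-fold under the wild-type line, or at least 62.3-fold against the highest control.

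Dmkn encodes dermokine, a glycoprotein secreted by the upper layers of the epidermis, and its pattern was another. Dmkn read 13.89, 13.80 and 13.62 on the wild-type arrays, 13.27, 13.29 and 13.08 on the knockout arrays and 5.68, 5.94 and 5.67 on the tumour arrays. The tracheal lines were both bright, although their arrays did not overlap, and every tumour array read under the highest bacterial control. Between knockout and wild-type line the difference was -0.56 ± 0.11, or 1.47-fold. Between tumour and knockout line it was -7.45 ± 0.11, a fold of 175 that rests in part on background and is at least 153 when set against the highest control.

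Sbsn encodes suprabasin, a secreted protein that transglutaminases can cross-link, and it followed Dmkn. Sbsn read 13.05, 12.87 and 13.00 on the wild-type arrays, 12.03, 12.04 and 11.97 on the knockout arrays and 6.59, 6.84 and 6.81 on the tumour arrays. The groups did not overlap, and the tumour arrays stayed above every bacterial control. The difference between knockout and wild-type line was -0.96 ± 0.10 (1.95-fold), and that between tumour and knockout line was -5.27 ± 0.10 (38.5-fold). Krtdap, Dmkn and Sbsn are neighbours on chromosome 7, yet Krtdap was the only one of them near background in the knockout line.

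Dapl1 encodes a small protein related to death-associated protein that is found in differentiating epithelia. Dapl1 read 10.97, 10.85 and 10.83 on the wild-type arrays, 5.05, 5.27 and 5.55 on the knockout arrays and 4.69, 4.57 and 4.87 on the tumour arrays. It was bright in the wild-type line, and every array of the other lines lay under the highest bacterial control. The difference of the knockout from the wild-type line was -5.59 ± 0.12 (48.3-fold, or at least 30.4-fold against the highest control). The step from knockout to tumour line was -0.58 ± 0.12 and lies at background on both sides, and the tumour line read at least 53.3-fold lower than the wild-type line, or at least 30.4-fold against the highest control.

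Of the structural proteins, Flg encodes profilaggrin, which is cut into filaggrin to bundle keratin. Flg read 7.27, 6.59 and 7.00 on the wild-type arrays, 3.18, 3.12 and 3.15 on the knockout arrays and 3.03, 3.23 and 3.16 on the tumour arrays. All knockout and tumour arrays were under the floor and overlapped each other. The wild-type signal was at least 3.50-fold above both of the other lines, or at least 1.99-fold against the highest control, the log2 differences being -3.80 ± 0.14 and -3.82 ± 0.14.

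Rptn encodes repetin, a relative of profilaggrin in the same gene cluster, and it was the member with a clear middle level in the knockout line. Rptn read 11.91, 11.25 and 11.42 on the wild-type arrays, 7.22, 7.93 and 8.01 on the knockout arrays and 4.55, 4.42 and 4.49 on the tumour arrays. The groups did not overlap, and only the tumour arrays lay at background. Its steps were -3.81 ± 0.19 (14.0-fold) from wild-type to knockout line and -3.23 ± 0.19 (at least 5.94-fold, or at least 3.38-fold against the highest control) from knockout to tumour line.

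Ivl, the early scaffold protein, was the member that read highest in the tumour line. Ivl read 6.37, 6.49 and 6.37 on the wild-type arrays, 4.76, 4.88 and 5.16 on the knockout arrays and 7.70, 7.64 and 7.56 on the tumour arrays. The groups did not overlap, and the knockout arrays lay around the floor. The knockout minus wild-type difference was -1.47 ± 0.11 (2.78-fold, in part on background, and at least 1.36-fold against the highest control). The tumour line was 2.70 ± 0.11 above the knockout line (6.50-fold, or at least 3.19-fold against the highest control) and 1.23 ± 0.11 above the wild-type line (2.34-fold).

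Among the genes of processing, Tgm1, the membrane-bound cross-linking enzyme, read lowest in the knockout line and in between in the tumour line. Tgm1 read 8.90, 8.36 and 7.97 on the wild-type arrays, 6.26, 6.55 and 6.59 on the knockout arrays and 7.26, 7.46 and 6.87 on the tumour arrays. The groups did not overlap, but the wild-type arrays spread over almost a full log2 unit, the widest of the 10 members (SD 0.47). Knockout and wild-type line differed by -1.94 ± 0.20 (3.84-fold). The tumour line was 0.73 ± 0.20 above the knockout line (1.66-fold) and lay -1.21 ± 0.20 from the wild-type line (2.32-fold lower).

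Spink5, which encodes the kallikrein inhibitor LEKTI, stayed bright in the knockout line. Spink5 read 12.90, 12.95 and 12.89 on the wild-type arrays, 11.49, 11.58 and 11.71 on the knockout arrays and 4.26, 3.95 and 3.97 on the tumour arrays. The wild-type arrays lay within a narrow band (SD 0.04), and all tumour arrays were under the floor. The step from wild-type to knockout line was -1.32 ± 0.10 (2.49-fold). That from knockout to tumour line was -7.54 ± 0.10, at least 87.2-fold, and the tumour line read at least 217-fold lower than the wild-type line. Against the highest control these bounds are 49.7-fold and 124-fold.

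Capns2 encodes a small regulatory subunit of calpains, calcium-dependent proteases inside the cell. Capns2 read 11.00, 10.59 and 10.84 on the wild-type arrays, 5.23, 5.47 and 5.73 on the knockout arrays and 5.30, 5.24 and 5.12 on the tumour arrays. The knockout and tumour arrays overlapped and lay under the highest bacterial control. Relative to the wild-type line the knockout line differed by -5.33 ± 0.13 (40.3-fold, or at least 28.8-fold against the highest control), and the tumour line differed from the knockout line by -0.26 ± 0.13.

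Of the members, 3 have further probe sets, and these did not all read alike. The other probe sets of Sbsn gave knockout against wild-type differences of -1.31 (2.48-fold) and -1.68 (3.21-fold), larger than the -0.96 of the brightest, and tumour against knockout differences of -4.66 and -3.65. The pair of further Rptn probe sets stayed between 5.51 and 5.86 and between 5.42 and 5.86 on all 9 arrays, under the highest bacterial control, and showed no separation of the lines. The further Ivl probe set averaged 5.42 in wild-type, 5.45 in knockout and 6.21 in tumour cells. It also read highest in the tumour line, by 0.76 over the knockout line, but its wild-type and knockout arrays overlapped, with a difference of 0.02. The lower level of Ivl in the knockout line thus rests on 1 of its 2 probe sets.

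**Figure D2:**
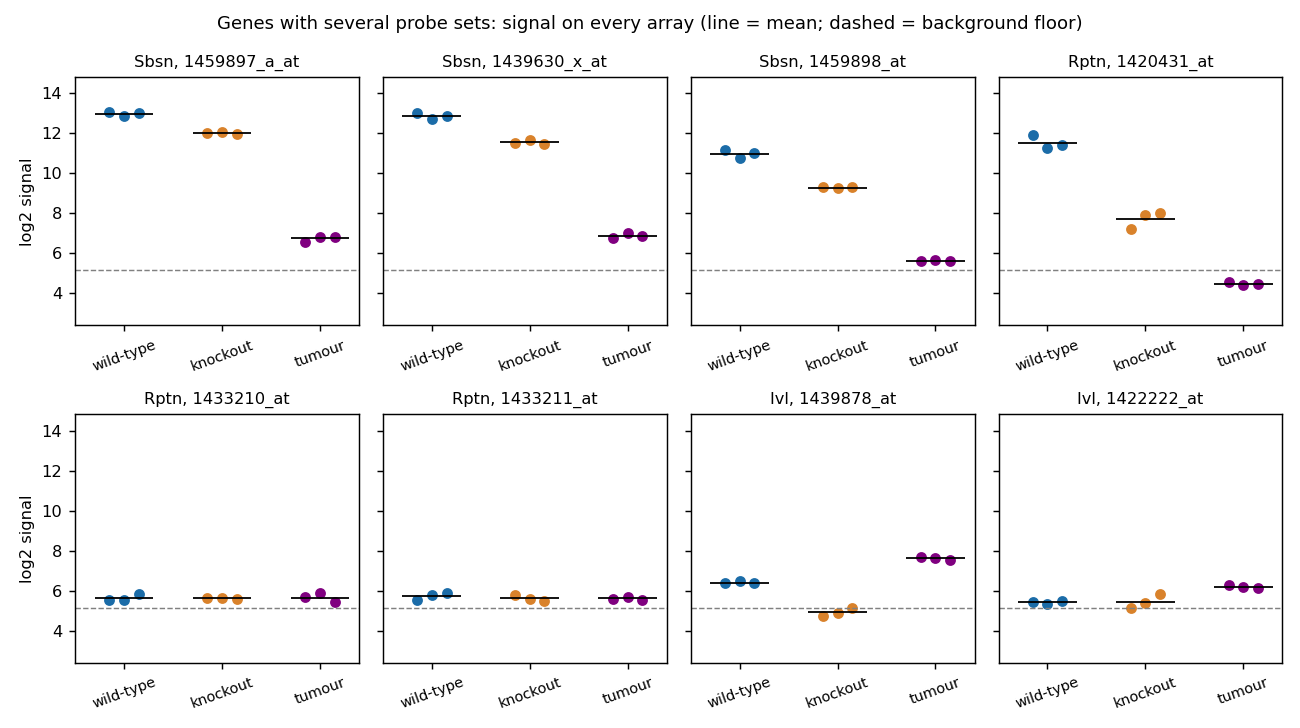
Log2 signal of every probe set of Sbsn, Rptn and Ivl on the 9 arrays, with 1 panel per probe set, a short line at each mean and the background floor of 5.15 dashed. The 3 Sbsn probe sets share an order of lines, while a pair of Rptn probe sets stays between 5.42 and 5.86 throughout and the second Ivl probe set separates only the tumour line.

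In the wild-type and knockout lines the order of the replicate arrays recurred across members. How often the same orders hold over all genes was not counted. Wild-type replicate 1 was the highest of its line for 8 of the 10 members, and replicate 2 the lowest for 5, namely Krtdap, Sbsn, Rptn, Flg and Capns2. In the knockout line replicate 1 was the lowest for 7 members and replicate 3 the highest for 6. On the tumour arrays the highest value was split, with 4, 5 and 1 members on replicates 1, 2 and 3. Wild-type replicate 1 also had the lowest beta-actin 3′ to 5′ difference of its line (0.75, against 1.09 and 1.78), and the part of RNA integrity in these orders was not tested.

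Taken over the list, 8 of the 10 members were called lower in the knockout than in the wild-type line by an adjusted p under 0.05 and at least 2-fold, where 2.98% of all genes were called lower and 1.9% higher. Dmkn and Sbsn did not reach 2-fold. Sbsn stands at that threshold: its -0.96 became -1.01 without wild-type replicate 2 and -1.32 with averaged probe sets, under which Ivl went from -1.47 to -0.73. All 10 members had knockout arrays below every wild-type array, as did 22.4% of all genes, while 16.7% of all genes had them above. The median difference of the members was -2.87, against -0.00423 over all genes. These counts describe how the members had been chosen and support nothing further.

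Between tumour and knockout line the members split. Krtdap, Dmkn, Sbsn, Spink5 and Rptn were called lower (6.38% of all genes) and Ivl was called higher (7.79% of all genes). For Krtdap the bound was 1.79-fold against the floor and 1.02-fold against the highest control, under 2-fold. Dapl1, Flg, Capns2 and Tgm1 were not called. The arrays did not overlap for 6 members that read lower (24.9% of all genes) and for Ivl and Tgm1, which read higher (27.4% of all genes). The 6 include Dapl1, which lay at background in both lines. The median of the members was -0.86, against 2.73e-05 over all genes. Between tumour and wild-type line 9 members were called lower (8.46% of all genes) and Ivl higher (8.09%). Of these, Tgm1 was -1.21 and went under 2-fold, to -0.97, without wild-type replicate 1. The 9 members that read lower had tumour arrays below every wild-type array (26.3% of all genes) and Ivl had them above (28.4%), with a median of -6.20 against 0.0101 over all genes. The members were chosen with results of these arrays known, so the counts of both comparisons are a description and support nothing further.

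**Figure D3:**
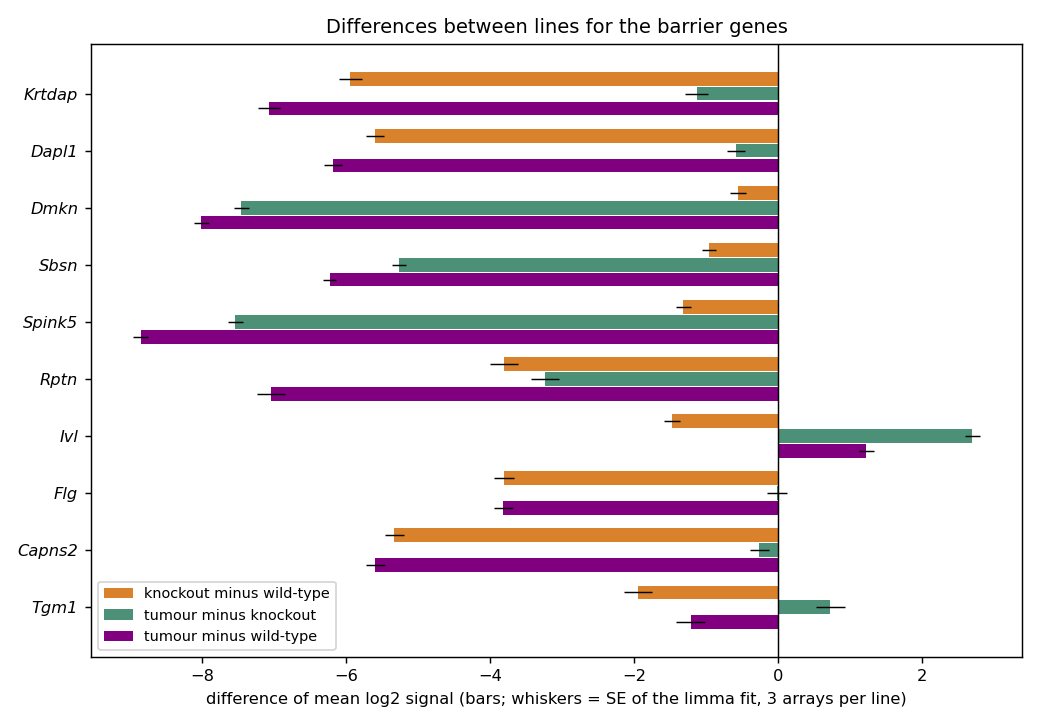
Log2 differences of the 10 members for knockout against wild-type, tumour against knockout and tumour against wild-type line, as bars from 0 with whiskers for the standard error of each gene's fit over 9 arrays. In knockout against wild-type the values run from -5.94 (Krtdap) to -0.56 (Dmkn), and in tumour against knockout from -7.54 (Spink5) to 2.70 (Ivl).

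By their levels, which were seen before this grouping was made, the members fall into 3 sets. Krtdap, Dapl1, Capns2 and Flg were at or close to background in the knockout line, and Rptn stood at a middle level there. Dmkn, Sbsn and Spink5 kept a bright signal in the knockout line and were 38.5-fold to 175-fold lower, or at least 87.2-fold for Spink5 (49.7-fold against the highest control), in the tumour line. Tgm1 and Ivl were lower in the knockout line and higher in the tumour line than in the knockout line. The basal keratins Krt5 and Krt14 moved with the second set, at 14.38 and 14.68 in knockout and 8.43 and 7.25 in tumour cells. So did the secretory marker Cyp2f2, at 11.32 and 5.77, and the basal markers Trp63 and Col17a1 were also lower in the tumour line. The basal marker Ngfr did not separate these lines, at 6.52 and 6.39. The suprabasal keratin Krt1 moved with the first set, at 10.43 in wild-type and 6.25 in knockout cells, while Krt10 differed by -0.85. The part of the basal, suprabasal and secretory cell share in the members' levels was not tested.

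The members of the chromosome 7 cluster were set beside their nearest measured genes. In order along the chromosome these are Tmem147, Gapdhs, Sbsn, Dmkn, Krtdap, Ffar2 and Cd22. The 4 flanking genes differed by less than 2-fold in each comparison, the widest difference being that of Ffar2 in tumour against knockout. In tumour against knockout, where Sbsn and Dmkn differed by -5.27 and -7.45, limma gave Gapdhs, a sperm glycolysis enzyme, -0.18 ± 0.10 (adjusted p = 0.184) and Ffar2, a short-chain fatty acid receptor, -0.44 ± 0.11 (adjusted p = 0.00403, under 2-fold). In knockout against wild-type these were -0.02 ± 0.10 (adjusted p = 0.927) and 0.25 ± 0.11 (adjusted p = 0.116).

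The chromosome 3 members lie in the epidermal differentiation complex, a run of genes for envelope proteins. Hrnr, which encodes hornerin and stands between Flg and Rptn, fell to background in the knockout line (-4.52 ± 0.10, at least 6.53-fold, adjusted p = 3.95e-13 by limma) and lay there in the tumour line too. Crct1, a cysteine-rich protein gene, fell by 3.99 ± 0.19 in the knockout line (adjusted p = 7.46e-10) and rose by 1.03 ± 0.19 from there to the tumour line (adjusted p = 0.000289). That rise went under 2-fold, to 0.82 and 0.99, without knockout replicate 1 or tumour replicate 2, and to 0.99 after quantile normalization. Sprr1a and Sprr3, small proline-rich genes on one side of Ivl, both fell in the knockout line, with differences of -2.33 ± 0.20 and -2.12 ± 0.22 (adjusted p = 5.91e-07 and 4.57e-06). From knockout to tumour line Sprr3 fell by 2.41 ± 0.22 (adjusted p = 3.62e-07), and Sprr1a, which stands between Sprr3 and Ivl, differed by -0.30 ± 0.20 (adjusted p = 0.274), where Ivl read 2.70 higher. Lce1a1 and Tchh fell in the knockout line too, with differences of -1.59 and -1.67 (adjusted p = 7.42e-08 and 2.10e-06), and Smcp, Lce1m and Tchhl1 lay under the floor in all lines.

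**Figure D4:**
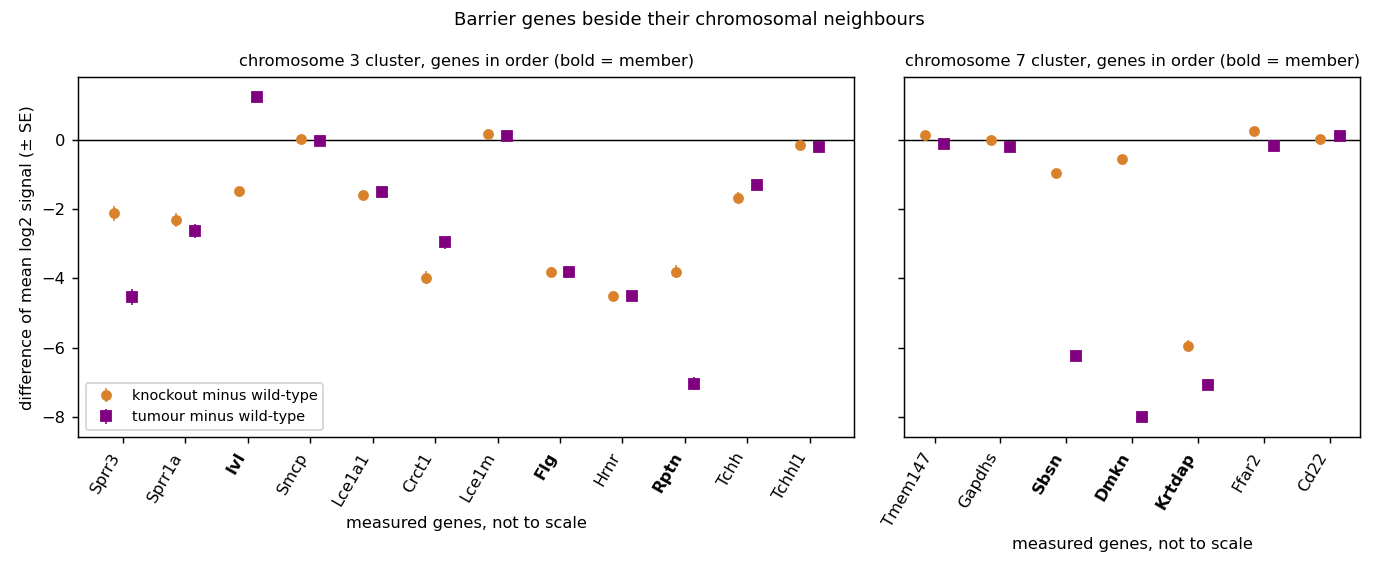
Log2 differences from the wild-type line, as circles for the knockout and squares for the tumour line with the standard error of each fit, for members (bold) and their nearest measured genes in chromosomal order on chromosomes 3 and 7. On chromosome 7 the points of Tmem147, Gapdhs, Ffar2 and Cd22 lie near 0 and those of Krtdap near -5.94 and -7.07, and on chromosome 3 both points of Flg and of Hrnr coincide.

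The rest of the barrier pathway was read from 8 lists with 98 genes, of which 89 were measured; the lists hold no member and were drawn up with earlier results of these arrays known. In the knockout against the wild-type line 27 of the 89 genes fell and 2 rose, so 30.3% were called lower against 2.98% of all genes. Their median difference was -0.40. In the tumour against the knockout line 25 were called lower, or 28.1% against 6.38% of all genes, and 6 higher, or 6.74% against 7.79%, with a median of -0.16. Of the 25, Cnfn, Dsg1b, Dsc1 and Elovl4 had tumour signals under the floor and a bound under 2-fold. Bounds of the pathway genes use the floor alone, not the highest bacterial control of 5.96. Klk10, Asprv1, Ovol1 and Prdm1 averaged 5.10, 5.58, 5.29 and 5.31 in the tumour line, under that control, so their differences rest in part on background. In the tumour against the wild-type line 45 fell, or 50.6% against 8.46% of all genes, and 8 rose, or 8.99% against 8.09%, with a median of -1.02. In both comparisons the share called higher was near that of all genes. All p-values below are limma's, adjusted by Benjamini-Hochberg over all 18193 genes.

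In the knockout line the corneodesmosome list, the rivets between cornifying cells, fell as a whole: all 4 measured genes were called lower. Dsg1a, a desmoglein, fell by 4.31 ± 0.10 (at least 14.6-fold, adjusted p = 3.95e-13) and Dsg1b, which is closely alike in sequence, fell by 4.13 ± 0.24 (adjusted p = 8.42e-09). Corneodesmosin (Cdsn) fell by 3.62 ± 0.15 (adjusted p = 2.38e-10) and the desmocollin Dsc1 fell by 3.23 ± 0.16 (adjusted p = 1.46e-09). From knockout to tumour line the signals of Dsg1b and Dsc1 differed by -2.96 ± 0.24 and -1.48 ± 0.16 (adjusted p = 8.94e-08 and 2.13e-06), but their tumour arrays lay under the floor, and against it the folds are at least 1.76 and at least 1.04, under 2-fold, while Cdsn differed by -0.18 ± 0.15 (adjusted p = 0.382). The second step of Dsc1 was -0.88, under 2-fold, when its probe sets were averaged.

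Of the 8 other envelope and S100-fused proteins measured, 5 fell in the knockout line. Hrnr is given above. Cornifelin (Cnfn) fell by 2.47 ± 0.23 (adjusted p = 1.27e-06), and loricrin (Lor), the main envelope protein of skin, fell by 1.80 ± 0.14 (adjusted p = 1.37e-07). Trichohyalin (Tchh), given above, and sciellin (Scel, -1.58 ± 0.13, adjusted p = 4.88e-07) complete the 5. Averaged over its probe sets Scel differed by -0.81, under 2-fold. The plakins envoplakin (Evpl) and periplakin (Ppl), which like Ivl belong to the early scaffold, differed by -0.30 and -0.20 and were not called. From knockout to tumour line Evpl fell by 1.82 ± 0.10 (adjusted p = 1.57e-09), while Ivl read higher there.

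The enzymes that act beside Tgm1 moved in both directions. Tgm3, the late epidermal transglutaminase, fell by 3.38 ± 0.14 in the knockout line (adjusted p = 2.16e-10) and differed by -0.15 between tumour and knockout line (adjusted p = 0.448). Tgm5 differed by 0.30 ± 0.11 between knockout and wild-type line and fell by 2.50 ± 0.11 from knockout to tumour line (adjusted p = 6.68e-11). The peptidylarginine deiminases, which turn arginine into citrulline in filaggrin and other proteins, gave the 3 largest rises of the 89 genes in tumour against knockout. Padi4 fell by 3.23 ± 0.11 in the knockout line (adjusted p = 2.70e-11) and rose by 5.09 ± 0.11 from there to the tumour line (34.1-fold, adjusted p = 3.96e-14). Its mean in the knockout line was 5.55, under the highest bacterial control of 5.96, so both differences rest in part on background. Padi1 fell by 1.84 ± 0.12 (adjusted p = 2.98e-08) and then rose by 3.17 ± 0.12 (adjusted p = 1.89e-11). Both Padi4 and Padi1 read highest in the tumour and lowest in the knockout line, the order of lines also read for Ivl. Padi2 rose by 4.20 ± 0.20 from knockout to tumour line (18.4-fold, adjusted p = 1.60e-10), with -0.13 ± 0.20 between knockout and wild-type line (adjusted p = 0.709). Padi3 fell at both steps, with differences of -2.22 ± 0.12 and -2.94 ± 0.12 (adjusted p = 3.48e-09 and 4.29e-11).

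Among 15 barrier proteases, which include kallikreins that the Spink5 product inhibits, 4 fell in the knockout line. Asprv1, the protease that trims profilaggrin, fell by 3.98 ± 0.15 (15.8-fold, adjusted p = 9.50e-11), and from there to the tumour line it fell by 1.32 ± 0.15 (adjusted p = 3.70e-06), in part on background. The kallikreins Klk8, Klk13 and Klk5 also fell, with differences of -2.71 ± 0.13, -2.24 ± 0.14 and -1.54 ± 0.10 (adjusted p = 6.43e-10, 1.16e-08 and 1.97e-08), the last at least 2.53-fold against the floor. Klk7, the kallikrein best known for cutting corneodesmosomes, differed by -0.79 ± 0.09, under 2-fold. Klk10 differed by 0.57 in the knockout line and fell by 3.24 ± 0.20 from there to the tumour line (adjusted p = 3.47e-09). Caspase-14 (Casp14), which helps to break down filaggrin, differed by 0.09 and -0.01 in these comparisons and was not called. Cathepsin L (Ctsl) rose by 1.15 ± 0.10 from knockout to tumour line (adjusted p = 1.59e-07), but by 0.18 (adjusted p = 0.0675) in the mean of its probe sets.

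Capns2 partners and other calpain genes made up a list of 8 measured genes. The inhibitor calpastatin (Cast) was the one of them called in the knockout line, where it rose by 1.28 ± 0.12 (adjusted p = 9.66e-07), and it fell by 2.06 ± 0.12 from there to the tumour line (adjusted p = 1.47e-09). Capns1, the small subunit found in most tissues, differed by 0.11 ± 0.13 in the knockout line (adjusted p = 0.618), where the difference of Capns2 was -5.33. Capn5 rose by 2.20 ± 0.12 in the tumour against the knockout line (adjusted p = 6.74e-10), and Capn1 fell by 1.04 ± 0.21 (adjusted p = 0.000697). The Capn1 difference went under 2-fold without knockout replicate 1 or tumour replicate 3 (-0.88 in each case) and with averaged probe sets (-0.89).

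Of 10 other protease inhibitors of epithelia, cystatin M/E (Cst6) and Wfdc5 fell in the knockout line, with differences of -1.81 ± 0.11 and -1.27 ± 0.13 (adjusted p = 1.42e-08 and 3.55e-06). From knockout to tumour line 3 fell. The leukocyte protease inhibitor Slpi fell by 3.01 ± 0.19 (adjusted p = 5.44e-09), maspin (Serpinb5) fell by 2.94 ± 0.11 (adjusted p = 1.50e-11) and Wfdc12 fell by 1.35 ± 0.15 (adjusted p = 2.11e-06). Slpi and Serpinb5 differed by -0.40 and 0.18 between knockout and wild-type line and were not called there.

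Of 22 genes for barrier lipids, 4 fell in the knockout line. Elovl4, which makes the very long acyl chains of skin ceramides, fell by 3.94 ± 0.14 (15.3-fold, adjusted p = 4.58e-11). Its signal in the tumour line, under the floor, differed from that in the knockout line by -1.58 ± 0.14 (adjusted p = 2.29e-07), a fold of at least 1.60. The lipoxygenase Alox12b fell by 3.65 ± 0.14 (at least 8.65-fold, adjusted p = 8.18e-11), the acyl hydroxylase Cyp4f39 fell by 2.33 ± 0.10 (adjusted p = 4.28e-10) and Elovl1 fell by 1.38 ± 0.10 (adjusted p = 6.40e-08). Without probe sets open to cross-hybridisation Elovl1 differed by -0.90, under 2-fold. The cholesterol sulfotransferase Sult2b1 fell by 2.56 ± 0.10 in the tumour against the knockout line (adjusted p = 1.95e-11), and Ugcg, which makes glucosylceramide, rose by 1.59 ± 0.14 (adjusted p = 1.72e-07).

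Of 14 transcription factors of epidermal differentiation, 4 fell and 1 rose in the knockout line, and 9 fell in the tumour against the knockout line. The grainyhead factors Grhl1 and Grhl3 fell at both steps, Grhl1 with differences of -2.12 ± 0.19 and -1.83 ± 0.19 (adjusted p = 6.59e-07 and 9.82e-07) and Grhl3 with -1.72 ± 0.13 and -2.72 ± 0.13 (adjusted p = 9.96e-08 and 1.66e-10). Ovol1 did so too, with -1.26 ± 0.09 and -1.32 ± 0.09 (adjusted p = 5.60e-08 and 8.30e-09), and Klf4 fell by 1.25 ± 0.10 in the knockout line (adjusted p = 3.40e-07). With averaged probe sets the Ovol1 steps were -0.85 and -0.69, under 2-fold, and its second step rests in part on background. Cebpa rose by 1.15 ± 0.12 in the knockout line (adjusted p = 5.15e-06) and fell by 3.40 ± 0.12 from there to the tumour line (adjusted p = 1.02e-11). Maf and Zfp750 fell in the tumour against the knockout line, with differences of -2.93 ± 0.13 and -2.86 ± 0.13 (adjusted p = 1.08e-10 and 1.42e-10).

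**Figure D5:**
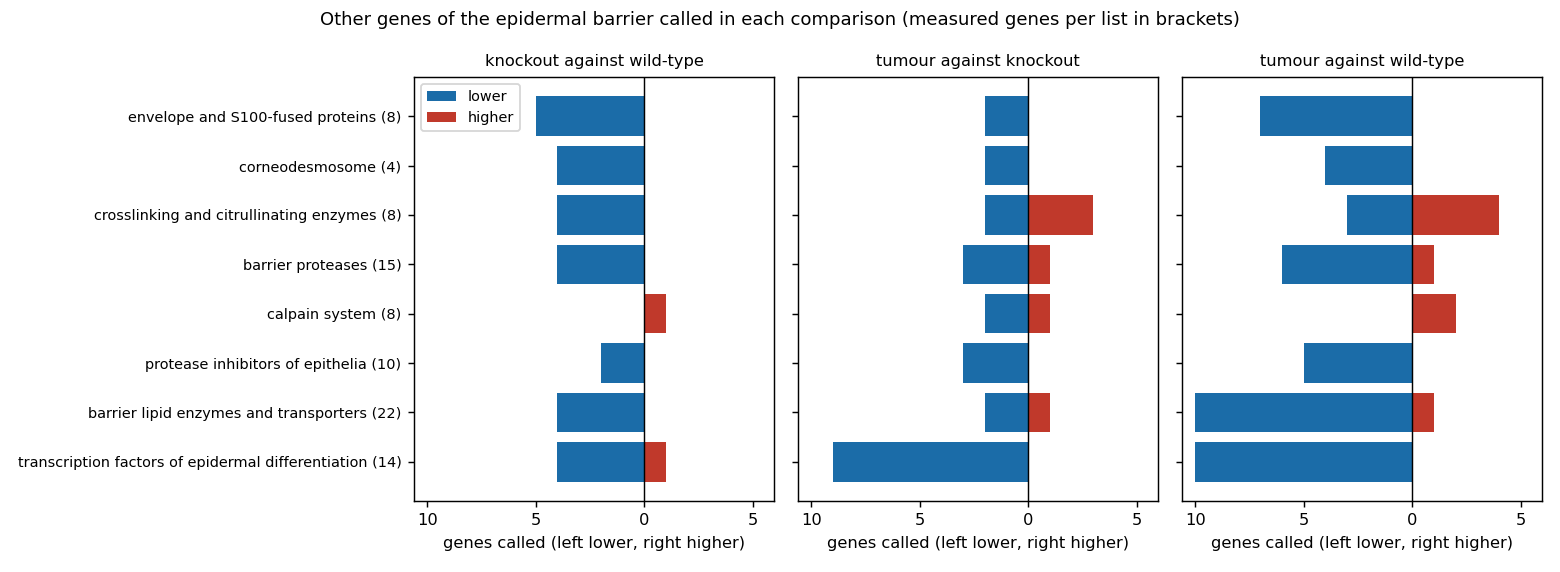
Number of genes called lower (bars to the left) and higher (bars to the right) in each of the 8 barrier pathway lists, with the measured genes in brackets, for the 3 comparisons, by limma at an adjusted p under 0.05 and at least 2-fold. All 4 corneodesmosome genes were called lower in knockout against wild-type, and the cross-linking and citrullinating enzymes were called in both directions in tumour against knockout.

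Genes outside the list whose profile lay closest to that of the members were found by the root-mean-square distance, over the 9 arrays, between each gene's centred log2 levels and the median centred profile of the 10 members. The closest 8 were Sdr16c6 at 0.219, Elovl4 at 0.236, Asprv1 at 0.248, Dsg1a at 0.279, Sprr1b at 0.352, Tmprss11a at 0.388, Ces2f at 0.406 and Csta1 at 0.437. Elovl4, Asprv1 and Dsg1a are also in the pathway lists. The members' own distances to that median ran from 0.585 for Capns2 to 2.81 for Ivl, so each of these 8 genes lay closer to the median profile than any member did. Sdr16c6, a short-chain dehydrogenase gene, averaged 8.77 in wild-type, 4.50 in knockout and 3.35 in tumour cells. These distances describe the shape of the signals over 3 lines and say nothing of shared control.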

How the data were processed

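The authors deposited log2 signals for 45101 probe sets on 9 arrays; how these were background-corrected, summarized and normalized is not given in the sources used here. Probe sets were named through the platform annotation: 34945 carried 1 gene symbol, 932 several, 9160 none, and 64 were controls. The brightest probe set over the 9 arrays stood for each of 18193 genes. limma 3.58.1 in R 4.3.3 was fitted to all 9 arrays (lmFit, eBayes, 6 residual degrees of freedom). A gene was called at a two-sided Benjamini-Hochberg adjusted p under 0.05 and at least 2-fold, "rose" and "fell" being used for calls alone. A "step" is a difference between lines and implies no sequence of stages. The procedure was tested on simulated data. Members and lists were chosen with earlier results of these data known. Named genes are all members, up to 4 called genes per list and comparison with the largest difference, the 2 measured neighbours on either side of clustered members, the 8 closest profiles and the markers; Evpl, Ppl, Scel, Klk7, Casp14, Capns1 in knockout against wild-type and other uncalled values were added after they were seen. RefSeq promoters (GRCm38.p6) were searched over the 250 bases before each start for 12 motifs. Alternatives covered normalization, dim probe sets, probe set choice, thresholds, the floor and leaving out each array.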

Additional observations from a re-analysis of the deposited data

How the results depend on the processing

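For the differences of the members, 408 values under the alternatives moved by less than the spread between replicates. A further 9 moved more, and none of these 9 changed sign. Among the 408, Flg in tumour against knockout, with both lines under the floor, changed sign around 0, from -0.01 to 0.04 without tumour replicate 1. The 9 all came from averaging a gene's probe sets, which gave Sbsn -1.32, -4.53 and -5.84, Rptn -1.30, -1.07 and -2.38, and Ivl -0.73, 1.73 and 1.00 for knockout against wild-type, tumour against knockout and tumour against wild-type. The median of the members in knockout against wild-type, -2.87, became -1.63 with averaged probe sets and -1.94 without the dimmest 40% of probe sets, where Flg has no value, and ranged from -2.97 to -2.66 when each array was left out in turn. The 10 lower bounds of member folds gave 15 values under another floor and all 15 moved, for example Flg from 3.50 to 1.99 against the highest control and 4.74 against the 20th percentile of all probe sets, Spink5 in tumour against knockout from 87.2 to 49.7 and 118, and Rptn in tumour against wild-type from 83.1 to 47.3 and 113. The median in tumour against knockout went from -0.86 to -1.13 without dim probe sets and ranged from -0.96 to -0.80 over arrays left out. In tumour against wild-type it was -5.72 with averaged probe sets and -6.26 to -6.16 over arrays left out. With no fold threshold the pathway genes called numbered 58 (10 higher, 48 lower) in knockout against wild-type, 55 (17 higher, 38 lower) in tumour against knockout and, in tumour against wild-type, 16 higher. At 1.5-fold, 47 (13 higher) were called in tumour against knockout. Of 2450 alternative values for 123 called differences of pathway and flanking genes, 2421 stayed past both thresholds, 29 did not and none reversed. Leaving out each array gave 29 to 30, 30 to 32 and 50 to 56 calls in the 3 comparisons; Capn1, Capns1, Ctsl, Dgat2, Ehf, Lipm, Pnpla1 and Ppl lost a call in at least 1 of these fits. With the replicate number as a block the counts stayed at 29, 31 and 53 and no call was lost. Deviations of same-numbered arrays correlated between -0.15 and 0.28. No pairs of unlike number were set beside these, so whether the numbers pair the arrays cannot be told. The main limits are 3 arrays and 1 line per group, signals near background for several members, and an unknown summarization.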
